A study of Mus musculus with 12 samples.

Results

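Gene expression of 10 receptors of the TNF receptor superfamily was described in mouse spleen. They were Tnfrsf1a, Tnfrsf1b, Fas, Tnfrsf4, Tnfrsf8, Tnfrsf9, Tnfrsf13b, Tnfrsf13c, Tnfrsf17 and Tnfrsf18, taken by symbol from the 22180 genes that had at least 1 row of their own in the array table. All 10 were measured, each by 1 row annotated to that gene alone. Spleen RNA of 12 female C57BL/6 mice, 10 weeks old by their labels, was measured on 12 arrays (Affymetrix Mouse Gene 2.0 ST), with 3 arrays in each of 4 groups. Both WT and ficolin KO mice were taken either in the naive state or after LPS challenge. Ficolin KO mice, called KO mice from here on, lack both ficolin-A and ficolin-B, which are pattern recognition molecules of the lectin pathway of complement, and WT and KO mice were each bred homozygously from the offspring of heterozygous crosses. LPS challenged mice had received 10 mg/kg lipopolysaccharide intraperitoneally and were sacrificed after 6 h. Naive mice were untreated, so the effects of LPS and of an injection cannot be told apart.

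Receptors of this superfamily bind trimeric ligands of the TNF superfamily through cysteine-rich domains outside the cell. Some, such as Fas and the TNF receptor Tnfrsf1a, carry a death domain inside the cell and can start apoptosis, whereas others bind TRAF adaptors and activate NF-kB and MAP kinases. In the spleen, several of them are costimulatory receptors of activated T cells, and the receptors of BAFF and APRIL are known for the survival of B cells and plasma cells. LPS is sensed by TLR4 and activates NF-kB and AP-1, and it induces TNF itself.

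After LPS challenge, Tnfrsf9, Tnfrsf8, Fas and Tnfrsf4 rose more than 2-fold in both genotypes. Tnfrsf17 fell more than 2-fold in both, but it was dim. Its call in KO mice was lost without the second naive KO array, without the first LPS challenged KO array, and with ordinary least squares. The other 5 receptors changed by less than 2-fold. The largest rise among the 10 was that of Tnfrsf9, the costimulatory receptor 4-1BB, at 6.31-fold in WT mice and 6.81-fold in KO mice. Between genotypes, Tnfrsf8 was 1.65-fold higher in naive KO mice, with an adjusted p of 0.999 by limma. It met the criteria on the unadjusted p, and not without the third naive WT array. None of the 10 met the criteria in LPS challenged mice.

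The sequences before the start sites of the 2 receptors with the largest rise, Tnfrsf9 and Tnfrsf8, of Fas, and of Tnfrsf13c, which was lower after LPS challenge, are shown as examples with and without motif matches. They are the 250 bases before a RefSeq start on GRCm38.p6, 5′ to 3′ on the strand of the gene, with matches to 3 motifs in capitals: the NF-kB consensus, the AP-1 motif TGANTCA and the GAS motif TTCNNNGAA, each searched on both strands. Matches to different motifs did not overlap in these windows.
Tnfrsf9, second of 2 listed starts, chr4:150927749-150927998, plus strand: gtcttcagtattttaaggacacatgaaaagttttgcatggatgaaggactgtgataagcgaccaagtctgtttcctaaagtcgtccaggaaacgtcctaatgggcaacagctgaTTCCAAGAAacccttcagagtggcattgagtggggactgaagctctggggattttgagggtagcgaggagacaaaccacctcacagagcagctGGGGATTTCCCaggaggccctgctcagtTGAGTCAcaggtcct
Tnfrsf8, chr4:145315165-145315414, minus strand: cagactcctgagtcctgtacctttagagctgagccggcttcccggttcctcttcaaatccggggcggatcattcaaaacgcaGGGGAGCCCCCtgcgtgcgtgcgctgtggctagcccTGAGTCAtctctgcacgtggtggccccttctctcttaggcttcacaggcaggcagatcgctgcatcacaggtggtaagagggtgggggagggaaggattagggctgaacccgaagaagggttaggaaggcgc
Fas, chr19:34290409-34290658, plus strand: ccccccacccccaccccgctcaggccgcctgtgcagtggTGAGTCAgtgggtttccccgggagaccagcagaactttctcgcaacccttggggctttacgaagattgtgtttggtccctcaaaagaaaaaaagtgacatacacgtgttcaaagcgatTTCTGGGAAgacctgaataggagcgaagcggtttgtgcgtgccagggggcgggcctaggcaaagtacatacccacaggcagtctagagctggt
Tnfrsf13c, chr15:82224381-82224630, minus strand: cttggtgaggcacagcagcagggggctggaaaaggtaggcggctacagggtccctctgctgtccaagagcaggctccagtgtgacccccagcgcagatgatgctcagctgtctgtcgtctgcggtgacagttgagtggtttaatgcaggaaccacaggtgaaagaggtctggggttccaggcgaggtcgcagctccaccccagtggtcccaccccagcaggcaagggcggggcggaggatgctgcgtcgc

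The second start of Tnfrsf9 had a match to each of the 3 motifs, with the NF-kB match 43 to 33 bases before the start and the AP-1 match 15 to 9 bases before it. The first start of Tnfrsf9 had none. Tnfrsf8 had an NF-kB match 168 to 158 bases and an AP-1 match 132 to 126 bases before its start, Fas had an AP-1 match and a GAS match, and Tnfrsf13c had no match. Tnfrsf4, which rose, Tnfrsf17, which fell, and Tnfrsf13b had no match either. Tnfrsf1a, Tnfrsf1b and Tnfrsf18, which changed by less than 2-fold, each had a GAS match and no match to the other motifs. Over the 11 windows of the 10 receptors, 2 held the NF-kB consensus, 3 the AP-1 motif and 5 the GAS motif, beside 7.25%, 6.75% and 7.02% of all 32851 windows of this length. A match of letters is a description and not a site of binding. The genes of 5 of the 10 receptors lie on chromosome 4, which holds 6.06% of the placed protein-coding genes, and in that order of genes Tnfrsf8 follows Tnfrsf1b and Tnfrsf18 follows Tnfrsf4 with 0 protein-coding genes between them.

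Values are log2 intensities, and a difference of 1 is a fold-change of 2. Array medians were 4.17 to 4.27 over all 41345 rows and 4.52 to 4.64 over the 22180 genes. Fcna, the ficolin-A gene, was between 7.92 and 9.38 on all 6 WT arrays and between 3.98 and 4.85 on all 6 KO arrays. Genes met the criteria between treatments at a fold-change over 2 with an adjusted p under 0.05 (limma, Benjamini-Hochberg over 22180 genes), and between genotypes at a fold-change over 1.5 with p under 0.05. Both LPS challenged groups had lower marker levels of several cell types than naive mice. The summed level of 7 B cell markers ranged from 13.24 to 13.47 on naive arrays and from 11.60 to 11.76 on LPS challenged arrays, and that of 7 T cell markers from 11.19 to 11.49 and from 9.95 to 10.29. In RNA of a whole spleen, fewer cells of a type and less RNA per cell cannot be told apart. The files used give no detection calls, so whether a group near or below the array medians was measured above background is not known.

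**Figure D1:**
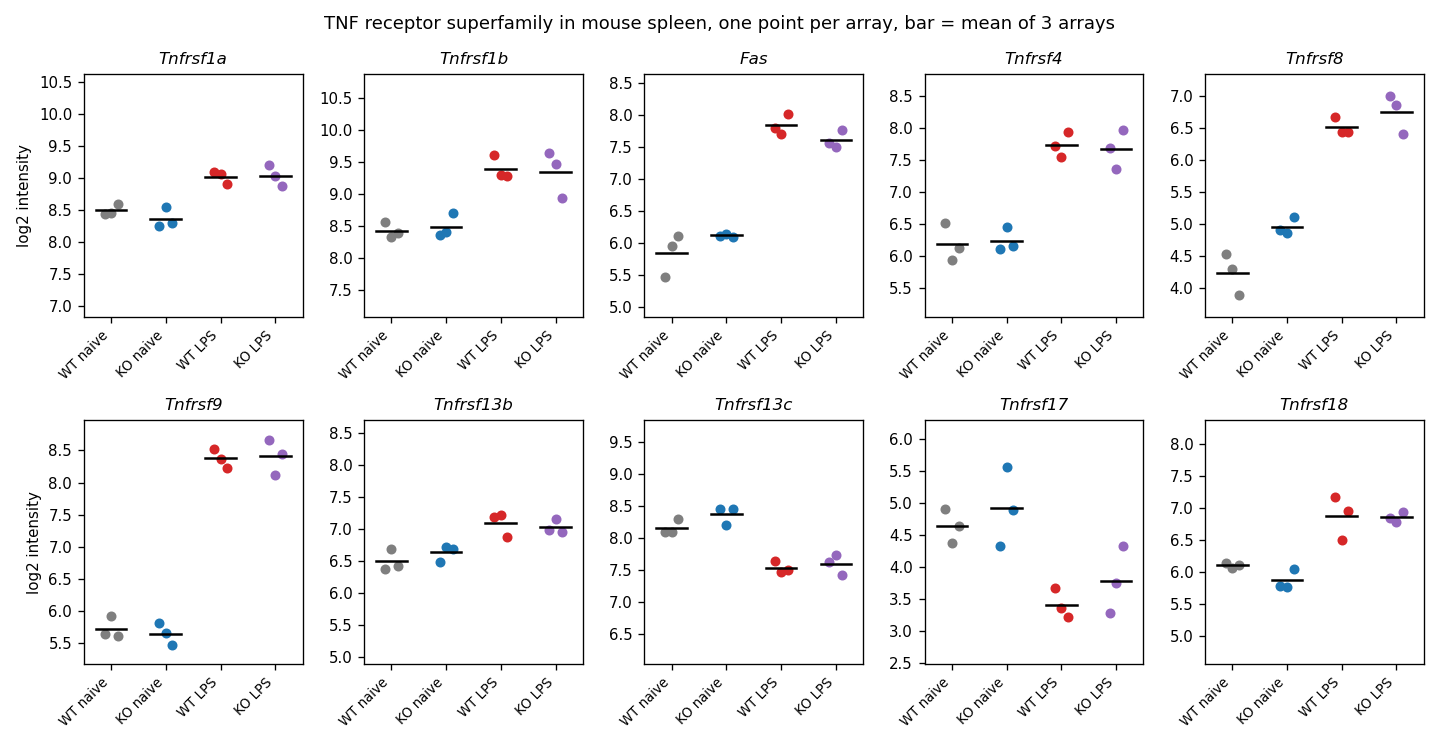
Log2 intensity of the 10 receptors on the 12 arrays, with 1 point per array, a bar at the mean of 3 arrays and an axis of its own for each gene. The 6 LPS challenged arrays lie above all 6 naive arrays for 8 receptors and below them for Tnfrsf13c, and for Tnfrsf17 the groups touch at 4.33.

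Of the 10 receptors, 4 rose and 1 fell by the criteria in WT mice, where 4.05% of all genes rose and 4.95% fell. The counts were the same in KO mice, where 4.22% rose and 4.43% fell, and the same 4 and 1 receptors were called in both genotypes (3.55% of genes rose in both and 3.69% fell in both). With no fold criterion, all 10 receptors had an adjusted p under 0.05 in each genotype, 8 higher and 2 lower after LPS challenge, beside 13.4% of all genes higher and 16.7% lower in WT mice, and 12.9% and 14.9% in KO mice. The median log2 fold-change of the 10 receptors was 0.87 in WT and 0.92 in KO mice, beside 0.01 and -0.01 over all genes. On 8 receptors every LPS challenged array lay above every naive array, which held for 11.7% of all genes, and on Tnfrsf13c every one lay below, which held for 13.5%.

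**Figure D2:**
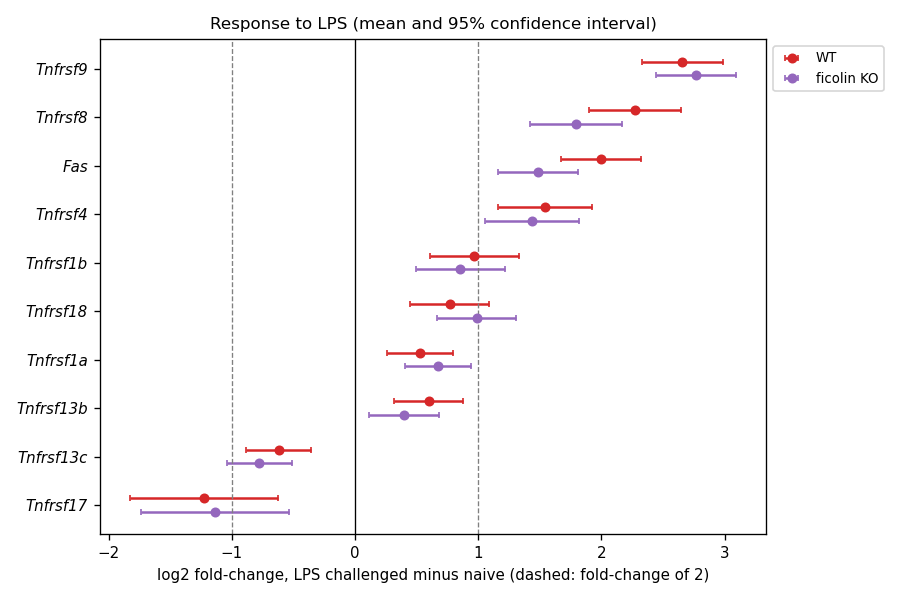
Log2 fold-change between LPS challenged and naive mice for each receptor in WT and KO mice, with 95% confidence intervals from limma on 12 arrays and dashed lines at a fold-change of 2. Tnfrsf9, Tnfrsf8, Fas and Tnfrsf4 lie beyond the upper line and Tnfrsf17 beyond the lower line in both genotypes.

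Among the receptors with a death domain, Fas, the receptor of Fas ligand, was the one called. Its log2 values were 5.47, 5.94 and 6.10 in naive WT mice, 6.11, 6.14 and 6.09 in naive KO mice, 7.79, 7.70 and 8.01 in LPS challenged WT mice and 7.55, 7.49 and 7.76 in LPS challenged KO mice. All LPS challenged arrays were higher than all naive arrays, and the 3 naive KO arrays lay close together while 1 naive WT array was lower. The log2 fold-change was 2.00 (SE 0.15, adjusted p = 1.01e-07 by limma) in WT mice and 1.49 (SE 0.15, adjusted p = 2.23e-06) in KO mice. Its ligand gene Fasl was dim, at 4.21 ± 0.27 in naive and 4.95 ± 0.61 in LPS challenged WT mice and at 4.57 ± 0.43 and 4.65 ± 0.11 in KO mice (SD, n = 3 each), and met the criteria in neither genotype.

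Tnfrsf1a, the TNF receptor found on most cells, had log2 values of 8.44, 8.45 and 8.59 in naive WT mice, 8.25, 8.55 and 8.29 in naive KO mice, 9.09, 9.06 and 8.91 in LPS challenged WT mice and 9.21, 9.03 and 8.87 in LPS challenged KO mice. The groups of the 2 treatments did not overlap, and the log2 fold-changes of 0.53 (SE 0.12, adjusted p = 0.00416 by limma) in WT and 0.67 (SE 0.12, adjusted p = 0.000633) in KO mice stayed under a fold-change of 2. Tnfrsf1b, the TNF receptor without a death domain that is found mainly on immune and endothelial cells, had values of 8.55, 8.32 and 8.39 in naive WT mice, 8.36, 8.40 and 8.70 in naive KO mice, 9.60, 9.29 and 9.27 in LPS challenged WT mice and 9.63, 9.46 and 8.93 in LPS challenged KO mice. All LPS challenged arrays were higher than all naive arrays, with the third LPS challenged KO array nearest to them. The log2 fold-change of Tnfrsf1b was 0.97 (SE 0.17, adjusted p = 0.000382) in WT and 0.85 (SE 0.17, adjusted p = 0.00112) in KO mice. Both lay close to the fold criterion, and Tnfrsf1b crossed it without the third LPS challenged KO array (1.06 in KO mice) and without the first naive WT array (1.03 in WT mice), the second (1.02) or the third LPS challenged WT array (1.03). Tnf, the ligand of both receptors, rose in both genotypes, by 2.28 (SE 0.17) in WT and 1.84 (SE 0.17) in KO mice, while Lta, which encodes lymphotoxin-alpha, was at 0.29 (SE 0.14) and 0.07 (SE 0.14) and was not called.

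The costimulatory receptors included 3 of the 4 receptors that rose. Tnfrsf9, whose signal through TRAF adaptors sustains activated T cells, had log2 values of 5.64, 5.92 and 5.60 in naive WT mice, 5.80, 5.65 and 5.47 in naive KO mice, 8.53, 8.37 and 8.23 in LPS challenged WT mice and 8.67, 8.11 and 8.44 in LPS challenged KO mice. The lowest LPS challenged array lay well above the highest naive array, and the genotypes overlapped within each treatment. LPS challenge raised Tnfrsf9 by 2.66 on the log2 scale (SE 0.15, adjusted p = 6.76e-09 by limma) in WT and 2.77 (SE 0.15, adjusted p = 4.92e-09) in KO mice. Its ligand gene Tnfsf9 rose in both genotypes, by 1.59 (SE 0.26) and 1.07 (SE 0.26).

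Tnfrsf8, which encodes CD30, a receptor of activated lymphocytes, had log2 values of 4.53, 4.29 and 3.89 in naive WT mice, 4.91, 4.85 and 5.11 in naive KO mice, 6.66, 6.43 and 6.44 in LPS challenged WT mice and 7.0, 6.85 and 6.40 in LPS challenged KO mice. The naive WT arrays were the lowest. They lay near the array medians over all rows, and within or below the range of those over genes, 4.52 to 4.64. The naive KO arrays were all above the naive WT arrays. The LPS challenged arrays of both genotypes were higher still and overlapped each other. Tnfrsf8 rose by 2.27 on the log2 scale (SE 0.17, adjusted p = 1.18e-07 by limma) in WT and 1.79 (SE 0.17, adjusted p = 1.42e-06) in KO mice. Its ligand gene Tnfsf8 had log2 fold-changes of 0.44 (SE 0.20) and 0.51 (SE 0.20) and was not called.

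Tnfrsf4, which encodes OX40, had log2 values of 6.52, 5.94 and 6.13 in naive WT mice, 6.11, 6.46 and 6.17 in naive KO mice, 7.72, 7.55 and 7.95 in LPS challenged WT mice and 7.70, 7.37 and 7.97 in LPS challenged KO mice. The treatments were separate and the genotypes overlapped in each. The log2 fold-change was 1.54 (SE 0.18, adjusted p = 7.88e-06 by limma) in WT and 1.43 (SE 0.18, adjusted p = 1.70e-05) in KO mice. The ligand gene Tnfsf4 lay below the array medians on all 12 arrays, from 2.89 to 3.86, and was not called.

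Tnfrsf18, the neighbour of Tnfrsf4 that encodes GITR, had log2 values of 6.15, 6.06 and 6.11 in naive WT mice, 5.79, 5.77 and 6.05 in naive KO mice, 7.17, 6.50 and 6.96 in LPS challenged WT mice and 6.85, 6.78 and 6.94 in LPS challenged KO mice. Every LPS challenged array was higher than every naive array, with the second LPS challenged WT array the lowest of them. The log2 fold-change was 0.77 (SE 0.15, adjusted p = 0.000964 by limma) in WT and 0.99 (SE 0.15, adjusted p = 0.000114) in KO mice, so Tnfrsf18 missed the fold criterion narrowly in KO mice and crossed it without the third naive KO array (1.08) or the second LPS challenged KO array (1.03). A second row, which is annotated to both Tnfrsf18 and Gm16008 and was not used, lay between 3.28 and 3.96 on all arrays, with log2 fold-changes of -0.05 (SE 0.14) in WT and 0.18 (SE 0.14) in KO mice, so the rows disagree. The ligand gene Tnfsf18 fell in WT mice, by 1.04 on the log2 scale (SE 0.29), and was at -0.85 (SE 0.29) in KO mice, where it was not called. Tnfsf18 was dim, and the first naive WT array, at 4.93, stood above the others, which lay between 2.59 and 4.09.

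Tnfrsf4, Tnfrsf9 and Tnfrsf18 are also carried by regulatory T cells. Of 4 measured marker genes of these cells, Il2ra, the IL-2 receptor alpha chain that activated T cells also carry, rose by 3.30 (SE 0.18) in WT and 3.85 (SE 0.18) in KO mice, and Ctla4, an inhibitory receptor, by 1.11 (SE 0.17) and 1.27 (SE 0.17). Foxp3, the transcription factor that defines them, was at 0.43 (SE 0.13) and 0.67 (SE 0.13), and Ikzf2 at -0.50 (SE 0.15) and -0.37 (SE 0.15), and neither was called. The summed level of the 4 genes ranged from 8.06 to 8.28 on naive and from 9.61 to 10.14 on LPS challenged arrays. Il2ra had the highest mean of the 4 on LPS challenged arrays, at 9.19 in WT and 9.41 in KO mice. The rise of the sum is therefore mainly that of Il2ra and does not by itself show more of these cells. Of 7 T cell markers, 4 were called lower in WT and 6 in KO mice, beside 4.95% and 4.43% of all genes. The largest fall among these markers was that of Cd3g, a chain of the T cell receptor complex, at -2.55 (SE 0.19) and -2.87 (SE 0.19). The part of these cells in the values of these receptors was not tested.

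The receptors of BAFF and APRIL did not move together. Tnfrsf17, which encodes BCMA, the receptor of plasma cells, had log2 values of 4.90, 4.37 and 4.64 in naive WT mice, 4.33, 5.55 and 4.88 in naive KO mice, 3.66, 3.35 and 3.22 in LPS challenged WT mice and 3.28, 3.74 and 4.33 in LPS challenged KO mice. The treatments were separate in WT mice, but in KO mice the lowest naive array equalled the highest LPS challenged array. Tnfrsf17 was dim, and all its LPS challenged values lay below the array medians over genes, 4.52 to 4.64. The log2 fold-change was -1.23 (SE 0.28, adjusted p = 0.00333 by limma) in WT and -1.14 (SE 0.28, adjusted p = 0.00604) in KO mice. In KO mice Tnfrsf17 missed the fold criterion without the second naive array (-0.82) or without the first LPS challenged array (-0.89), and ordinary least squares on the KO arrays gave an adjusted p of 0.196.

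Of 6 plasma cell genes, Mzb1 and Jchain, picked after their values were seen, were high on the same KO arrays as Tnfrsf17, while Irf4 and Prdm1 did not follow it on the LPS challenged ones. Mzb1, a chaperone of antibody-secreting cells, was highest among naive KO arrays on the second, at 9.06, and among LPS challenged KO arrays on the third, at 7.82, and Jchain, the joining chain of IgA and IgM, was highest on the same arrays, at 11.82 and 11.09. Mzb1 fell in both genotypes, with log2 fold-changes of -1.72 (SE 0.28) in WT and -1.62 (SE 0.28) in KO mice, and Jchain fell in WT mice, at -1.05 (SE 0.23), and was at -0.80 (SE 0.23) in KO mice. Prdm1, a transcription factor of plasma cells that other activated cells also express, rose in WT mice by 1.20 (SE 0.13) and was at 0.81 (SE 0.13) in KO mice, where it was not called. Irf4 was at 0.86 (SE 0.16) in WT and 0.98 (SE 0.16) in KO mice, and Sdc1 at 0.24 (SE 0.14) and 0.27 (SE 0.14). Xbp1 was at -0.33 (SE 0.15) and -0.39 (SE 0.15), and Irf4, Sdc1 and Xbp1 were called in neither genotype. The summed level of the 6 plasma cell genes ranged from 11.87 to 12.59 on naive and from 11.49 to 12.06 on LPS challenged arrays. The part of plasma cell RNA in the fall of Tnfrsf17 was not tested.

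Tnfrsf13c, the BAFF receptor of mature B cells, had log2 values of 8.08, 8.08 and 8.29 in naive WT mice, 8.45, 8.19 and 8.45 in naive KO mice, 7.63, 7.47 and 7.49 in LPS challenged WT mice and 7.62, 7.73 and 7.41 in LPS challenged KO mice. Every LPS challenged array was lower than every naive array. Its log2 fold-change was -0.62 (SE 0.12, adjusted p = 0.00119 by limma) in WT and -0.78 (SE 0.12, adjusted p = 0.000178) in KO mice, both short of the fold criterion. Of 7 B cell markers, 5 fell in both genotypes, beside 3.69% of all genes. Among them was Cd79a, a chain of the B cell receptor, with log2 fold-changes of -2.46 (SE 0.13) in WT and -2.35 (SE 0.13) in KO mice. Pax5, the transcription factor of B cell identity, was at 0.05 (SE 0.14) and 0.04 (SE 0.14). The part of B cell RNA in the lower values of Tnfrsf13c was not tested.

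Tnfrsf13b, which encodes TACI, a receptor of both BAFF and APRIL on B cells, moved the other way. Its log2 values were 6.37, 6.69 and 6.42 in naive WT mice, 6.49, 6.72 and 6.69 in naive KO mice, 7.18, 7.22 and 6.87 in LPS challenged WT mice and 6.98, 7.16 and 6.96 in LPS challenged KO mice. All LPS challenged arrays were higher than all naive arrays, at 0.60 on the log2 scale (SE 0.13, adjusted p = 0.00262 by limma) in WT and 0.40 (SE 0.13, adjusted p = 0.0342) in KO mice, under the fold criterion in both. Tnfsf13b, the BAFF gene, was at -0.65 (SE 0.16) and -0.63 (SE 0.16) and was not called.

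Between genotypes, 1 of the 10 receptors met the criteria in the naive state, beside 0.185% of all genes. This was Tnfrsf8, with a log2 fold-change of 0.72 between KO and WT mice (SE 0.17, 95% confidence interval 0.35 to 1.09), an unadjusted p within the criterion and an adjusted p of 0.999 by limma. With calls on the adjusted p alone, 0 of the 10 receptors were called, beside 0.00451% of all genes. All 3 naive KO arrays were above all 3 naive WT arrays, which held for 3.21% of all genes. The call was lost without the third naive WT array, where the log2 fold-change was 0.55 with a fold-change under 1.5. Tnfrsf18 was lower on all 3 naive KO arrays than on all naive WT arrays, which held for 3.07% of all genes, with a log2 fold-change of -0.24 (SE 0.15) that was not called. The other 8 receptors had log2 fold-changes from -0.13 to 0.28 in the naive state.

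In LPS challenged mice, 0 of the 10 receptors met the criteria between genotypes, beside 0.46% of all genes, and 0 had an unadjusted p under 0.05 by limma, beside 5.18% of all genes. Ordinary least squares also called 0 of them. The log2 fold-changes between KO and WT mice ranged from -0.23 (SE 0.15, 95% confidence interval -0.56 to 0.09) for Fas to 0.37 (SE 0.28, -0.23 to 0.97) for Tnfrsf17, and that of Tnfrsf8 was 0.24 (SE 0.17, -0.13 to 0.61). Without the first LPS challenged KO array, Tnfrsf17 met the criteria, at 0.63 on the log2 scale (adjusted p = 0.997 by limma). A summed level of 5 genes of the exocrine pancreas, a tissue that adjoins the spleen, ranged from 11.88 to 14.08 on the naive and LPS challenged arrays of WT mice and on the naive arrays of KO mice, and from 6.82 to 11.87 on the LPS challenged arrays of KO mice. Its part in the values of the receptors was not tested.

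**Figure D3:**
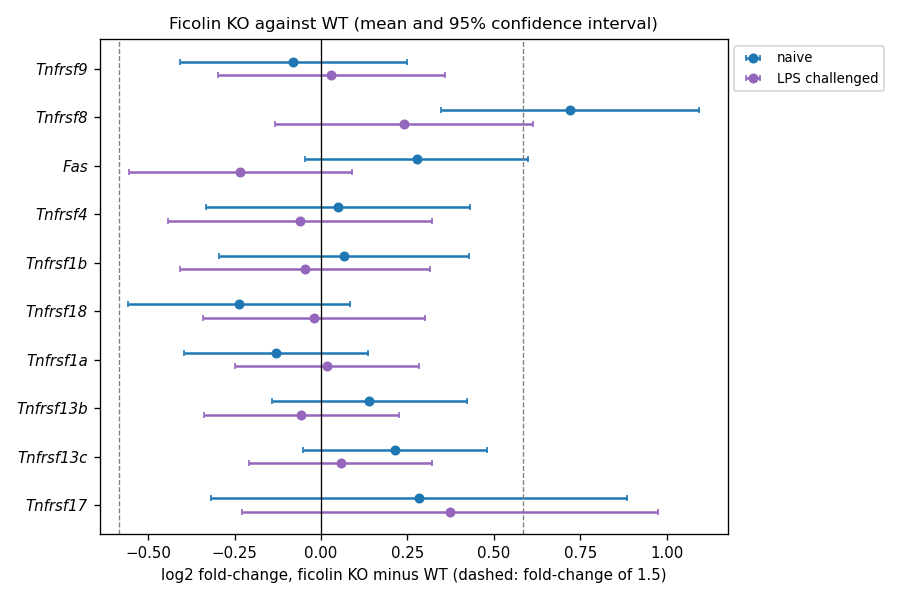
Log2 fold-change between KO and WT mice for each receptor in the naive and the LPS challenged state, with 95% confidence intervals from limma on 12 arrays and dashed lines at a fold-change of 1.5. Tnfrsf8 in the naive state, at 0.72, is the one value beyond a dashed line.

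The difference between the LPS responses of the genotypes was below an adjusted p of 0.05 for 0 of the 10 receptors by limma, beside 0.00902% of all genes, and had an unadjusted p under 0.05 for 1 of them, beside 3.53% of all genes. Ordinary least squares called 0. The 1 receptor was Fas, whose log2 response was smaller by 0.51 in KO mice (difference -0.51, SE 0.21, 95% confidence interval -0.97 to -0.05, adjusted p = 0.998). The response of Fas in WT mice was 1.81 without the first naive WT array, in place of 2.00. With each array left out in turn, the difference for Fas ranged from -0.64 to -0.33. For Tnfrsf8 the difference was -0.48 (SE 0.25, -1.01 to 0.05), and it shares the naive arrays on which Tnfrsf8 differed between genotypes. For Tnfrsf9 it was 0.11 (SE 0.22, -0.35 to 0.57). An adjusted p over 0.05 does not show that the responses are alike, and the intervals give what these arrays leave possible.

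Of 18 other receptors of the superfamily that were measured, 1 rose in WT mice, and 2 rose and 1 fell in KO mice. Of all genes, 4.05% rose and 4.95% fell in WT mice, and 4.22% rose and 4.43% fell in KO mice. With no fold criterion, 10 of the 18 had an adjusted p under 0.05 by limma in WT and 8 in KO mice, in either direction. At that threshold, 13.4% of all genes were higher and 16.7% lower in WT mice, and 12.9% and 14.9% in KO mice. Whether the shares of the 18 differ from those of the 10 receptors was not tested. Cd40, the costimulatory receptor of B cells and antigen-presenting cells, rose by 2.20 (SE 0.15) in WT and 2.10 (SE 0.15) in KO mice. Tnfrsf12a, the receptor of TWEAK, rose by 1.27 (SE 0.14) in KO mice and was at 0.97 (SE 0.14) in WT mice, and Cd27, a costimulatory receptor of T cells, fell in KO mice, at -1.07 (SE 0.13), and was at -0.87 (SE 0.13) in WT mice. The median of the 18 was 0.27 in WT and 0.21 in KO mice.

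Of 8 measured ligands of the 10 receptors, 2 rose in each genotype (Tnf and Tnfsf9) and 1 fell in WT mice (Tnfsf18). Of 21 measured adaptors and signalling genes, 6 rose in each genotype and 0 fell, beside the shares of all genes given above. The largest rises were those of Tnfaip3, the A20 protein that limits NF-kB signalling, at 2.46 (SE 0.13) and 2.44 (SE 0.13), and Traf1, an adaptor of Tnfrsf1b, Tnfrsf8 and Tnfrsf9, at 1.93 (SE 0.16) and 2.11 (SE 0.16). Nfkbia, the inhibitor that holds NF-kB in the cytoplasm, rose by 1.20 (SE 0.11) and 1.25 (SE 0.11), and Nfkb2, an NF-kB subunit, by 1.24 (SE 0.15) and 1.18 (SE 0.15). Of 4 genes of receptor shedding, 0 met the criteria (limma), and 2 had an unadjusted p under 0.05 in each genotype, beside 38.4% of all genes in WT and 36.1% in KO mice. These were Adam10, a membrane protease, at -0.89 (SE 0.13) and -0.86 (SE 0.13), and Rhbdf2, which helps to mature Adam17, at 0.81 (SE 0.11) and 0.64 (SE 0.11). Adam17, the protease that releases TNF and its receptors from the cell surface, was at 0.00 (SE 0.15) and -0.11 (SE 0.15).

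**Figure D4:**
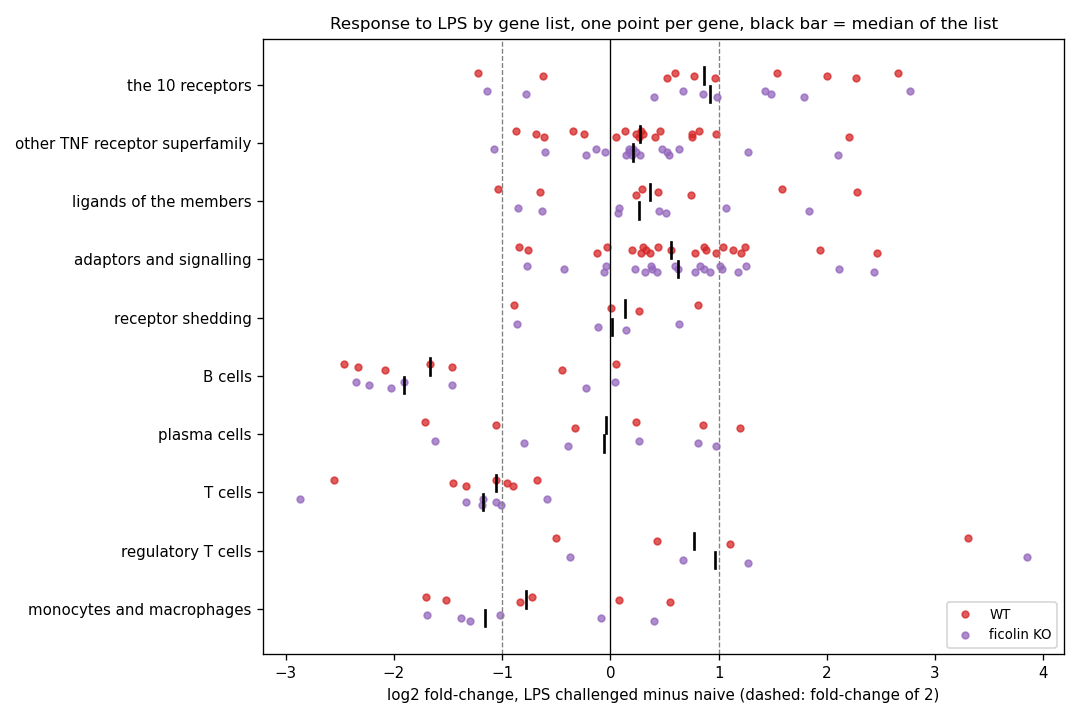
Log2 fold-change between LPS challenged and naive mice for the genes of 10 lists, with 1 point per gene, WT and KO mice in separate colours, a black bar at the median of each list and dashed lines at a fold-change of 2. The medians of the 10 receptors are 0.87 and 0.92, those of the other receptors of the superfamily 0.27 and 0.21, and those of the B cell markers -1.66 and -1.91.

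The genes whose pattern over the 12 arrays was most like that of the called receptors were sought among 10990 brighter genes outside the lists. These correlations describe arrays that include both treatments, so any gene that follows LPS challenge scores high. Nearest to Tnfrsf9 were Nampt, an enzyme of NAD synthesis, Spred1, an inhibitor of Ras signalling, and Nlrc5, a regulator of MHC class I genes (Pearson's r of 0.996 for each). Nearest to Fas were the chemokine gene Cxcl2 (0.987), the growth factor gene Hbegf (0.986) and the carbonic anhydrase gene Car13 (0.986). Nearest to Tnfrsf8 were the cystine transporter gene Slc7a11 (0.989), the kinase gene Prkx (0.986) and AI506816 (0.984), and nearest to Tnfrsf4 were the nuclear pore gene Seh1l (0.982), the hyaluronan synthase gene Has2 (0.981) and Maff (0.980). Tnfrsf17 was most like Plpp5 (0.950), Mycbp (0.948) and Chst1 (0.941).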

How the data were processed

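Spleen RNA of 12 mice was measured on 12 Affymetrix Mouse Gene 2.0 ST arrays. The values deposited by the authors are log2 intensities after quantile normalization and RMA summaries, in 41345 rows, with no genome build stated in the sources used here. Rows with 1 gene symbol in the platform annotation were kept (23521), and the row of highest mean represented a gene, which gave 22180 genes with no filter on dim ones. Groups came from the labels, and replicates are separate mice. Limma 3.58.1 in R 4.3.3 was fitted to all 12 arrays (8 residual and 6.7 prior degrees of freedom), Benjamini-Hochberg adjustment covered all 22180 p-values, and the fit was tested on simulated data. The thresholds on p and the fold cut-offs were those the study used, and differences between responses were called at an adjusted p under 0.05. Precision is limited by 3 arrays a group, and the median standard error of a log2 fold-change was 0.141. Alternatives concerned rows, dim genes, scaling, variances, the arrays in the fit, ordinary least squares, a replicate block, each array left out, and calls on the adjusted p alone; the row that Tnfrsf18 shares with Gm16008 was added after seeing the data.

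The members and lists were chosen with earlier results of these data known. Named genes were all 10 receptors, their ligands, up to 4 genes of a list by the mean of both LPS responses, and Fcna. The 3 genes most correlated with each receptor called in both genotypes, among genes above the median of all genes, were also named. Pax5, Foxp3, Ikzf2, Adam17, Xbp1, Sdc1 and Tnfrsf18's second row were named after their values were seen. Summed marker levels are log2 of summed linear intensities. Promoter sequences came from RefSeq (GRCm38.p6), where all 10 receptors matched. Listed genes with no row of their own were not analysed here.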

Additional observations from a re-analysis of the deposited data

How the results depend on the processing

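The 5 receptors called between treatments in WT mice kept their call and direction under every alternative that measured them. In ficolin KO mice, Tnfrsf9, Tnfrsf8, Fas and Tnfrsf4 did so too, and Tnfrsf17 lost its call under 3 alternatives. Tnfrsf17 was not measured with dim genes left out. With calls on the adjusted p alone, 10 receptors were called in WT and 10 in ficolin KO mice, and in the naive state 0 were called between genotypes in place of 1. Leaving out each array in turn gave 5 to 6 receptors called between treatments in WT and 4 to 6 in ficolin KO mice, 0 to 1 called between genotypes in the naive state, 0 to 1 in the LPS challenged state, and 0 for the difference between the responses. Tnfrsf1b (1.02 in WT mice) and Tnfrsf18 (1.07 in ficolin KO mice) crossed the fold criterion with array medians subtracted, and Tnfrsf18 also with quantile normalization again (1.02).

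Changes of direction concerned genotype differences and differences between the responses that were not called, and the row that Tnfrsf18 shares with Gm16008, at -0.0533 in WT mice. In LPS challenged mice, the genotype difference of Tnfrsf18 was 0.0033 with array medians subtracted, and those of Tnfrsf1a and Tnfrsf9 were -0.0032 and -0.0125 with quantile normalization again. With each array left out in turn, log2 genotype differences in the naive state ranged from -0.0783 to 0.212 for Tnfrsf4, -0.16 to 0.02 for Tnfrsf9, -0.0317 to 0.578 for Tnfrsf17 and -0.04 to 0.13 for Tnfrsf1b. In the LPS challenged state they ranged from -0.07 to 0.10 for Tnfrsf1a, -0.19 to 0.16 for Tnfrsf1b, -0.21 to 0.10 for Tnfrsf4, -0.10 to 0.18 for Tnfrsf9, -0.167 to 0.0083 for Tnfrsf13b, -0.015 to 0.145 for Tnfrsf13c and -0.21 to 0.13 for Tnfrsf18. Differences between the responses ranged from -0.21 to 0.41 for Tnfrsf17, -0.272 to 0.045 for Tnfrsf4, -0.0217 to 0.258 for Tnfrsf9 and -0.258 to 0.0917 for Tnfrsf1b. The cause was not tested.

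For mice of the same replicate number, correlations of their deviations from the group means ranged from -0.217 to 0.249 over 12 pairs. Of these, 2 were over 0.1. Over 24 pairs with different numbers they ranged from -0.23 to 0.205, and 3 were over 0.1. With 3 mice a group, such correlations cannot show whether mice of the same number share more than a number. With the replicate block, 5 receptors were called between treatments in WT mice, 5 in ficolin KO mice, 1 between genotypes in the naive state and 0 in the LPS challenged state, and 0 for the difference between the responses.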
